A study of Mus musculus with 18 samples.

Results

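The liver of BALB/cJ mice was compared with that of 6 other inbred strains by the open chromatin sites that set it apart: sites with a peak in BALB/cJ only, sites with a peak in every strain except BALB/cJ, and sites called in all 7 strains at which the BALB/cJ peak ranked far above or below the others. Peaks of the 7 inbred strains that overlapped or touched were merged into 50121 autosomal sites, and a strain was counted as having a site where 1 of its peaks overlapped it by at least 1 bp. Of these sites 1479 (2.95%) had a peak in BALB/cJ only and 143 (0.285%) lacked one in BALB/cJ only. A further 13909 sites were called in all 7 strains, and there 566 (4.07%) stood at least 20 percentile points higher in BALB/cJ than the mean of the other 6 strains and 569 (4.09%) at least 20 points lower. These 4 groups are described here by their nearest genes, their place and their values.

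FAIRE-seq was done on the livers of 18 male mice, 2 from each of 9 strains. BALB/cJ mice were set against 6 other inbred strains (A/J, AKR/J, C3H/HeJ, C57BL/6J, DBA/2J and CBA/J) and against BXH2/TyJ and BXH19/TyJ, recombinant strains whose parents are C57BL/6J and C3H/HeJ, not BALB/cJ. Every strain, BALB/cJ included, was on the HF/HS diet (high in fat and sucrose) for 8 weeks after chow up to 8 weeks of age, so there was no group on another diet. The authors joined the 2 mice of a strain into 1 list of reproducible peaks, so each strain is 1 value, the spread between mice cannot be computed, and BALB/cJ is ranked among 7 values with no p-value.

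FAIRE-seq recovers the DNA that formaldehyde does not hold in nucleosomes, which includes active promoters and the more distant enhancers to which transcription factors bind. In hepatocytes, the main cell of the liver, enhancers of metabolic genes are bound by HNF4A, FOXA and C/EBP proteins, while many promoters of genes that every cell uses are rich in G and C and carry Sp1, ETS or NRF1 motifs. BALB/cJ, a common laboratory strain, is known for a mutation in Zhx2, a repressor that silences the fetal gene Afp in the adult liver.

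Peak signal is a score of the authors' peak caller, and no source says that it was scaled to compare strains. BALB/cJ had the highest median score, 0.641, against 0.118 to 0.523 in the other 6 inbred strains. Each peak was therefore expressed as its percentile within its own list, where 100 is the strongest peak. The BALB/cJ list held 30077 peaks with a median width of 542 bp, against 26769 to 30613 peaks and 376 to 528 bp in the other inbred strains. The BALB/cJ libraries were at the low end of depth among the inbred strains, with those of A/J, and the part of depth in the results was not tested. A BALB/cJ peak lay within 1 kb of a transcription start site (TSS) for 4 of 5 hepatocyte markers (Hnf4a, Ttr, Apoa1 and Serpina1a, but not Alb), for 0 of 7 Kupffer cell and leukocyte markers, 0 of 4 liver endothelial markers, 1 of 4 stellate cell markers (Reln) and 1 of 4 cholangiocyte markers (Sox9). The other 6 inbred strains had such a peak for 2 to 5 of the hepatocyte markers and for 1 to 3 of the endothelial markers.

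Sites that lead each group are shown first, as the reference sequence of mm9 on the plus strand over the central 300 bp of the site, with matches to the searched motifs in capitals. None of these windows overlaps an annotated exon. The windows with capitals were chosen among named sites that held a match, which were 13 of the 20 strongest BALB/cJ-only, 5 of the 20 strongest missing and 8 of the 15 highest sites. The share of all sites with a match to any of the motifs was not computed. The first 2 had a peak in BALB/cJ only, and lie near Helt, a transcriptional repressor, and Gsk3b, the kinase that restrains glycogen synthase. The capitals mark a C/EBP match (TTGCNNAA on either strand) in the window near Helt and a FOXA match (TGTTTAC) near Gsk3b.
BALB/cJ-only site near Helt, chr8:47434524-47434823: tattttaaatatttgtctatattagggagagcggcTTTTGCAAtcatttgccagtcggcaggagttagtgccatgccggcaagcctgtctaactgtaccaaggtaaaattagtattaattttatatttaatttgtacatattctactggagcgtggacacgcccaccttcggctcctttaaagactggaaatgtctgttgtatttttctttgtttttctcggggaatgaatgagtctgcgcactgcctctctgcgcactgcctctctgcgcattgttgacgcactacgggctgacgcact
BALB/cJ-only site near Gsk3b, chr16:38048301-38048600: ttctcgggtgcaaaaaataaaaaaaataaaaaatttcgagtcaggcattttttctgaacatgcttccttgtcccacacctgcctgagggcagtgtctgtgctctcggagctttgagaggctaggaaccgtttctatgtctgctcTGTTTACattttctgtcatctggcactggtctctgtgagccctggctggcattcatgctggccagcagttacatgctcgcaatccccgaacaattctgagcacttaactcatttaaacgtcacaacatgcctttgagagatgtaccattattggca

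The next site, beside the TSS of Car14, a membrane-bound carbonic anhydrase, was called in the 6 other strains and not in BALB/cJ, and its capitals mark a STAT match (TTCNNNGAA) and a FOXA match.
Site missing in BALB/cJ near Car14, chr3:95707745-95708044: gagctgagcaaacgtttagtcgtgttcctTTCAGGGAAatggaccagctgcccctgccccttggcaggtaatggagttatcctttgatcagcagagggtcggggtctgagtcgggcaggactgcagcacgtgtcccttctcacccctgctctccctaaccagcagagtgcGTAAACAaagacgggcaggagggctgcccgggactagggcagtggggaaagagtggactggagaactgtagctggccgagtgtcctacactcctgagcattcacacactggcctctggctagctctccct

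The following 3 sites were called in all 7 strains and were among the 15 that ranked highest in BALB/cJ relative to the others. The window in Sufu, a negative regulator of Hedgehog signalling, holds 2 C/EBP and 2 AP-1 matches (TGANTCA), that near Sdr9c7 a C/EBP match and an overlapping pair of AP-1 and C/EBP matches, and that in Rcor1, a subunit of the CoREST corepressor, a FOXA match.
Site higher in BALB/cJ in Sufu, chr19:46533832-46534131: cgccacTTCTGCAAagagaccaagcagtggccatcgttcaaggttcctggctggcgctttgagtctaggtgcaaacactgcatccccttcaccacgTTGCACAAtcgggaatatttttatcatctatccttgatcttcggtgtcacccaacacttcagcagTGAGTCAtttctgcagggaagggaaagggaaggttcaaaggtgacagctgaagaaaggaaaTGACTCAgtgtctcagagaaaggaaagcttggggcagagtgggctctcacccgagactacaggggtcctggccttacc
Site higher in BALB/cJ near Sdr9c7, chr10:127382550-127382849: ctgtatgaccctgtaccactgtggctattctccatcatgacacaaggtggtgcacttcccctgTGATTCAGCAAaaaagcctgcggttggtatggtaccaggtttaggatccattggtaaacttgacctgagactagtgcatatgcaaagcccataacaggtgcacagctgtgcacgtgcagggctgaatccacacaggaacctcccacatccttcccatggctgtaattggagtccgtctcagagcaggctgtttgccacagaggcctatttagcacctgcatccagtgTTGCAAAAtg
Site higher in BALB/cJ in Rcor1, chr12:112327402-112327701: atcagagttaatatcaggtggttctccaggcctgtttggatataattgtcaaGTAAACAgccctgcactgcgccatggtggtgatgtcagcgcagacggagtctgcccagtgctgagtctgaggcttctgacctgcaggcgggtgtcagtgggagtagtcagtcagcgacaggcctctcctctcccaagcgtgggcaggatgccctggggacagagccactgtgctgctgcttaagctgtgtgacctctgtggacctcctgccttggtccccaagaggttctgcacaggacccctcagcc

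The last, in an intron of Prr5, a subunit of the mTORC2 kinase complex, was among the 15 sites that ranked lowest in BALB/cJ. None of these 15 held a match to any of the 12 searched motifs in its central window. The 569 lower sites as a group did hold matches. AP-1 matches lay in 7.91% of them and C/EBP matches in 5.98%, against 6.05% and 8.8% of sites called in all 7 strains.
Site lower in BALB/cJ in Prr5, chr15:84505695-84505994: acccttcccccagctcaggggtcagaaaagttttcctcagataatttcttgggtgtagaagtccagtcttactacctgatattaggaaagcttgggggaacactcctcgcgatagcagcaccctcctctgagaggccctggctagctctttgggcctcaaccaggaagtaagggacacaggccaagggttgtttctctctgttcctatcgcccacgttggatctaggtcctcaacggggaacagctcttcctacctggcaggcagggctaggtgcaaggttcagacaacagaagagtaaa

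Sites with a peak in BALB/cJ only were mostly distal and mostly weak. Of the 1479 sites 136 lay within 1 kb of a TSS, which is 9.2% (95% exact binomial interval 7.77 to 10.8%, here and below counting error only), against 35.6% of all sites, and 20.1% lay within 2.5 kb. Introns held 803 of them, 482 were intergenic and 194 touched an exon, and the median distance to a TSS was 9660 bp, against 3948 bp over all sites. Their median percentile was 13.4 in the BALB/cJ list, 597 of them ranked under 10, and 31 ranked at 50 or above. They were narrow (median 337 bp, against 494 bp over all sites), and their GC content averaged 49.6 ± 3.7%, against 54.7 ± 7.2% over all sites (SD over sites). Single-strain sites of the other strains except A/J were alike in these traits. Their promoter shares were 8.39 to 15.1%, median percentiles 9.34 to 16.7, median widths 240 to 322 bp and mean GC contents 42.45 to 53.75%.

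The number of such sites in BALB/cJ was within the range of the other strains. Single-strain sites numbered 1479 in BALB/cJ, against 7084 in A/J, 2095 in AKR/J, 1653 in C57BL/6J, 1228 in DBA/2J, 1036 in C3H/HeJ and 989 in CBA/J. Sites lacking a peak in 1 strain only numbered 143 in BALB/cJ, against 3237 in A/J, 980 in DBA/2J, 403 in C57BL/6J, 174 in AKR/J, 108 in CBA/J and 54 in C3H/HeJ. A/J stood apart from the rest in both counts and in the promoter shares, and the counts that depend on it are also given without it. The count of BALB/cJ-only sites was 871 when each inbred list was limited to its 20000 strongest peaks and 1639 without A/J, while the count of sites missing in BALB/cJ only was 290 without A/J and 254 without DBA/2J.

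**Figure D1:**
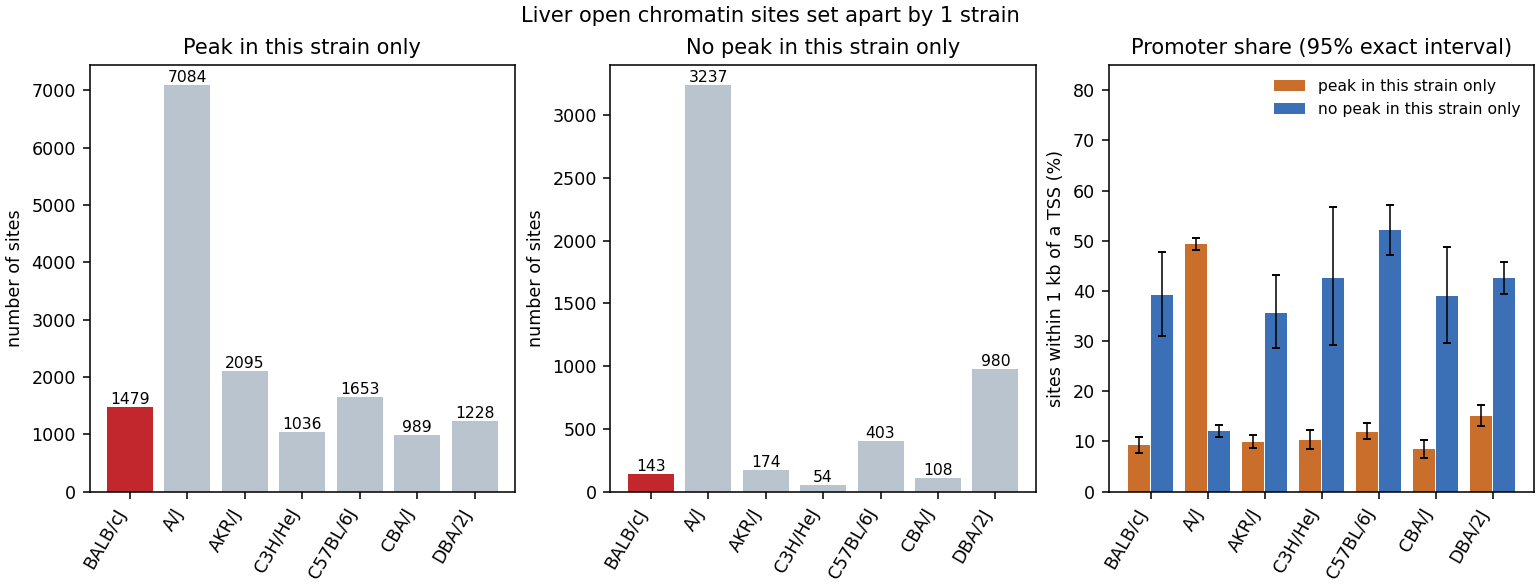
Number of autosomal sites with a peak in 1 strain only (left), number with no peak in 1 strain only (middle) and share of each within 1 kb of a TSS (right, bars with 95% exact binomial intervals), for BALB/cJ and the 6 other inbred strains. BALB/cJ has 1479 and 143 sites, with promoter shares of 9.2% and 39.2%, and A/J is far from the rest in all 3 panels.

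Among sites called in 2 strains, the partner of BALB/cJ was most often C3H/HeJ. BALB/cJ shared 515 such sites with C3H/HeJ, 327 with C57BL/6J, 294 with CBA/J, 138 with A/J, 134 with AKR/J and 91 with DBA/2J. Over all sites the overlap was largest with CBA/J and C3H/HeJ: 72.9% of the sites called in BALB/cJ or CBA/J and 72.7% of those called in BALB/cJ or C3H/HeJ were called in both, against 45.2% for A/J. BALB/cJ also had a peak at 97.2% of the 5099 sites called in 6 strains.

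The strongest BALB/cJ-only site lay in Galnt2, which encodes a glycosyltransferase that starts O-glycosylation and is linked to plasma lipid levels. It ranked at the 77.7 percentile of the BALB/cJ list (chr8:126846945-126847864), 27679 bp downstream of the nearest annotated TSS of the gene, and overlapped an exon of Galnt2. The nearest peak of another strain was 6134 bp away. Galnt2 was the nearest gene of 20 sites, and 5 of them were found in BALB/cJ only. The other 4 were weak, at the 15.1, 3.56, 2.06 and 6.64 percentiles. At an intronic Galnt2 site called in 6 strains (chr8:126788009-126790306), by contrast, BALB/cJ ranked at 24, against 88.4 in AKR/J, 92 in C57BL/6J, 92.5 in C3H/HeJ, 87.7 in CBA/J and 76.1 in DBA/2J, and A/J had no peak. BALB/cJ thus had both the gene's strongest private peak and the lowest rank among the strains called at one of its strongest shared peaks.

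Other leading BALB/cJ-only sites lay from 1997 bp (Nfix) to 205634 bp (7SK) from the TSS of their nearest gene. A site 54262 bp upstream of Helt (chr8:47434287-47435060) ranked at 72.9 and had a peak at 19.2 in BXH19/TyJ. A site over an exon of Pnldc1 ranked at 67.3. An intronic site of Vgll4, a cofactor that opposes YAP on TEAD factors, ranked at 62.6, and Vgll4 was nearest to 4 BALB/cJ-only sites among 27 sites in all.

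Further leading sites were nearest to genes of varied function. A site 11548 bp downstream of the TSS of Bhlhe41, a repressor in the circadian clock, ranked at 61.4. Sites near Irs3, an insulin receptor substrate, and Pnpla7, a lysophospholipase, ranked at 57.9 and 56.3, the first of them over an exon of Agfg2. Sites near the kinase genes Sik3 and Gsk3b ranked at 55.9 and 54.1, and those near Nfix and Zmiz1, which encode transcriptional regulators, at 55.3 and 55.5. None of the 20 was a promoter site, 6 of them had a peak in a BXH strain, and 12 lay in the authors' list of most variable sites, which was made from these same libraries.

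The BXH lists did not enter the choice of sites, but the calls of their parents C57BL/6J and C3H/HeJ did, so the shares of sites with a BXH peak are in large part set by that choice and are given as a description. A peak in BXH2/TyJ or BXH19/TyJ overlapped 293 of the 1479 BALB/cJ-only sites, 19.8% (17.8 to 21.9%), and 65.2% of all sites. With the 20000 strongest peaks of each inbred list, and the BXH lists whole, this share was 64.5% of the BALB/cJ-only sites. For the single-strain sites of the other inbred strains this share was lowest in DBA/2J at 11.7% and A/J at 17.6%, and highest in CBA/J at 25.6% and AKR/J at 32.3%. Both BXH strains had a peak at 31 BALB/cJ-only sites. The nearest peak of another inbred strain was at a median distance of 3164 bp, and 569 BALB/cJ-only sites lay more than 5 kb from any.

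BALB/cJ-only sites were spread over all 19 autosomes, from 2.2% of the sites on chromosome 11 to 3.94% on chromosome 5, and over 806 windows of 1 Mb. The windows with the most of them held 8, which were 8.25% of 97 sites on chromosome 5 and 5.93% of 135 on chromosome 10. The share over all sites was 2.95%. In the window on chromosome 5 they lay within chr5:123115081-123643827, around Kdm2b and Hpd, which encodes an enzyme of tyrosine breakdown, and the same window held 6 sites that ranked at least 20 points higher in BALB/cJ. Those on chromosome 10 lay around Lrp1, a lipoprotein receptor, and Stat6. A window on chromosome 2 held 6 BALB/cJ-only sites among 55 sites (10.9%), nearest to 1700029J11Rik, AL845460.1 and Pck1, the gene of the gluconeogenic enzyme PEPCK. 1700029J11Rik was nearest to 4 BALB/cJ-only sites among 7 sites in all. The Pck1 site in this window (chr2:172971377-172971736) ranked at only 5.21. It had a peak in both BXH strains and lay in the authors' list of most common sites.

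Sites missing in BALB/cJ only were few. The rule asked for a peak in all 6 other strains, which favours strong sites, so their strength describes the choice of sites. In the other 6 strains the median of their mean percentile was 40.6, and 49 of 143 had a mean of 50 or above. For sites missing in each other inbred strain only this median ran from 32 in C3H/HeJ to 45 in A/J. Promoter sites made up 56 of the 143, 39.2% (31.1 to 47.7%), and 25.2% of the 290 sites found when A/J was left out. Over all sites the share was 35.6%, inside that interval. Among sites missing in 1 other strain only it was 12% for A/J and 35.6 to 52.1% for the rest. The sites missing in BALB/cJ only were wider than the BALB/cJ-only sites (median 653 bp) and richer in GC, at 56.7 ± 6.36%, against 54.7 ± 7.2% over all sites. A BXH peak overlapped 135 of them, 94.4% (89.3 to 97.5%), BXH2/TyJ at 123 and BXH19/TyJ at 109, where both parents of the BXH strains had a peak by the rule. For sites missing in each other inbred strain only this share was 96.3 to 98.9%. The nearest BALB/cJ peak was at a median distance of 11727 bp, and within 200 bp at 1 site.

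At the TSS of Nudt7, which encodes a peroxisomal coenzyme A hydrolase abundant in liver, every strain but BALB/cJ had a strong peak (chr8:116656909-116658024). BALB/cJ had none, and the 6 other strains ranked from 73.7 to 86, with a median of 82.6. The peak was also present in BXH2/TyJ at 75.6 and in BXH19/TyJ at 87.4. The nearest BALB/cJ peak was 3140 bp away, and BALB/cJ did have peaks at 54.1 and 32.4 at 2 intronic sites of the gene.

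At other promoters without a BALB/cJ peak the spread between strains was wider. At Sumf2, a sulfatase-modifying factor, the site ranked from 32 to 91.4 in the other strains (median 87.5), the low value being that of A/J, and the nearest BALB/cJ peak lay 28832 bp away. That of Shkbp1 ranked from 29.7 in AKR/J to 92.3 in DBA/2J (median 78). That of Ccdc68 on chromosome 18 ranked from 65.2 to 85.7 (median 69.6), and the nearest BALB/cJ peak was 256261 bp away. The site 2 bp upstream of the Car14 TSS ranked from 49.9 to 77.5 (median 63.4), and that of Trpm4, a cation channel, from 33.9 to 78.4 (median 59.4). Only 5 of the 143 sites were at 50 or above in each of the other 6 strains, those at Nudt7, Ccdc68, in the body of Tmem104 with Grin2c as the nearest gene, and at Sfi1 and 4930467E23Rik.

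Cyp2j11, a gene of the arachidonic acid-metabolizing CYP2J family, had 2 sites, both intronic and both without a BALB/cJ peak. One ranked from 7.71 to 83 in the other 6 strains (median 67.9). The other had no peak in A/J either and ranked at 73.2 in AKR/J, 76.1 in C57BL/6J, 71.3 in C3H/HeJ, 81.2 in CBA/J and 78.4 in DBA/2J. The nearest BALB/cJ peak to the first was 227572 bp away.

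The sites missing in BALB/cJ clustered in 2 windows. Within chr8:19759514-19949477, beside 4930467E23Rik and Gm15319, there were 6, and within chr11:3040382-3073150, at Sfi1, a centrosome gene, there were 5; together they gave 8 of the 20 strongest. At the chromosome 11 sites DBA/2J ranked from 99.7 to 99.8 and C57BL/6J from 99.2 to 99.8, while C3H/HeJ ranked from 3.35 to 56.3. In the 1 Mb window on chromosome 8 BALB/cJ had a peak at 8 of 98 sites, against 96 in DBA/2J, 50 in A/J, 48 in C57BL/6J, 35 in AKR/J, 31 in CBA/J and 16 in C3H/HeJ. Only reads with a single location in the genome were kept, and the part of that filter in these windows was not tested. Without both windows 132 sites remained missing in BALB/cJ only, 53 of them at promoters.

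**Figure D2:**
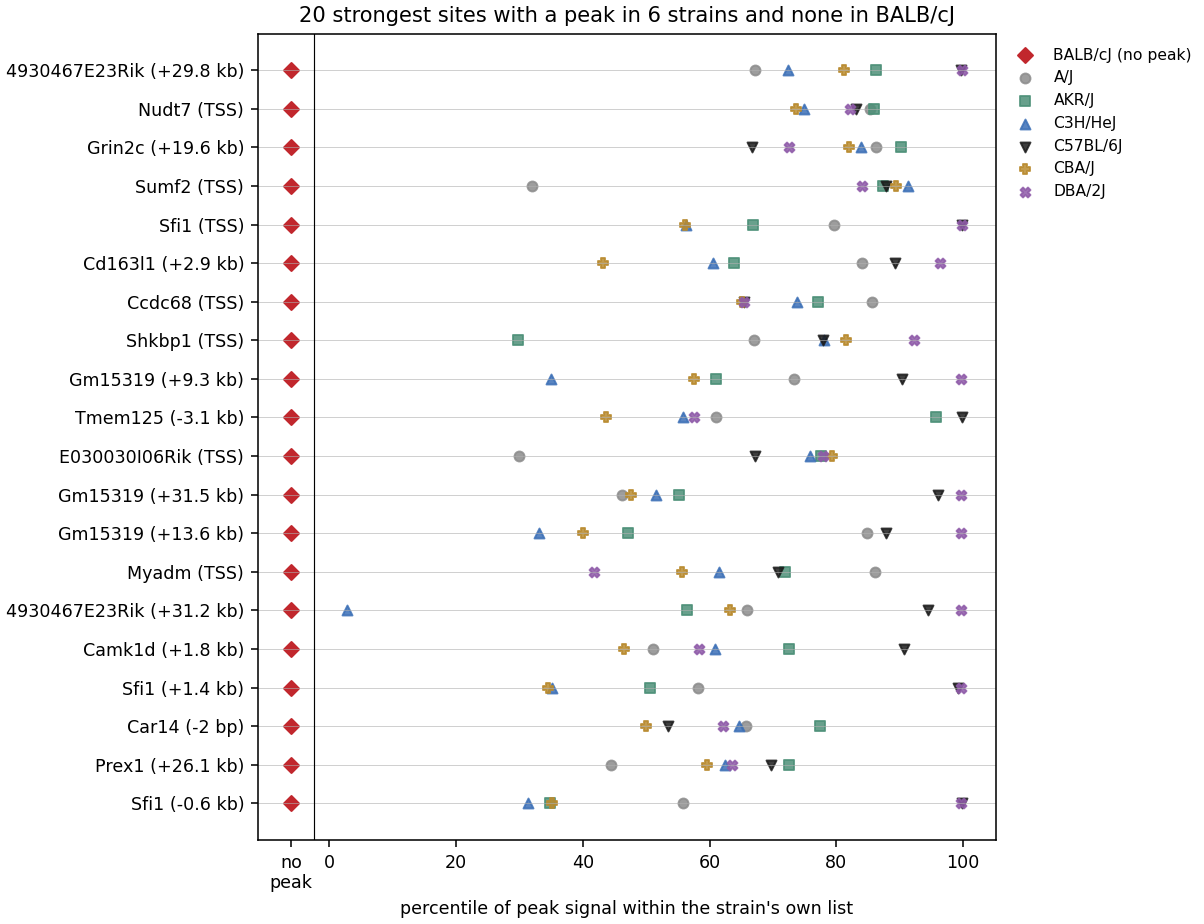
Within-list percentile of peak signal in the 6 other inbred strains at the 20 strongest sites that lack a peak in BALB/cJ only (rows, named by the nearest gene and the distance to its TSS, ordered by the mean of the 6 strains); the diamonds at the left mark the absence of a BALB/cJ peak. The points at Nudt7 lie close together, from 73.7 to 86, while those at Sfi1 and Gm15319 spread widely between strains.

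The 3 main sites of Myadm, which encodes a membrane protein first described in myeloid cells, were all low in BALB/cJ. At the TSS site chr7:3288969-3289500 BALB/cJ had no peak, against ranks of 41.8 to 86.1 in the other 6 strains. At the neighbouring TSS site it ranked at 12.6, against 53.5 to 83.8 (median 74.5), and 1932 bp into the gene at 19.9, against 81.7 to 91.8 (median 88.1). Both BXH strains ranked from 57.7 to 82.6 at these 3 sites. BALB/cJ therefore lay below every other strain at each of them.

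Among the 13909 sites called in all 7 strains, the difference between BALB/cJ and the mean of the other 6 ran from -75.8 to 54.4 points, with a median of 1.78. The sites nearest to the limit of 20 points were at 20 and 19.98 on the upper side and at -20.03 and -19.99 on the lower side. The lower tail was longer: at a limit of 30 points 75 sites were higher and 215 lower. Percentiles have a ceiling, and the mean of the other 6 strains had a median of 71.9 over the 13909 sites. At most of them BALB/cJ thus had less room to rank higher than to rank lower. The counts at 30 points therefore cannot be read as a difference between the tails, and the part of the ceiling in them was not tested. With percentiles taken among these shared sites alone, 924 were at least 20 points higher and 914 lower. BALB/cJ lay above all 6 strains at 439 of the 566 higher sites and below all 6 at 437 of the 569 lower sites, and over all sites called in 7 strains it did so at 15.8% and 11.2%. The rule set BALB/cJ against the mean of the same 6 strains, so these counts describe the choice of sites.

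Higher and lower sites differed in place. Promoters made up 23.5% (20.1 to 27.2%) of the higher sites and 51.8% (47.6 to 56%) of the lower sites, against 64.2% of all sites called in 7 strains. GC content averaged 52.3 ± 4.54% at higher and 58.4 ± 5.28% at lower sites. Other strains, each set against its own 6 others, also had fewer promoters among higher than lower sites. These were C3H/HeJ (21.3% and 55.1%), C57BL/6J (30.2% and 71.1%), CBA/J (42.1% and 67.8%) and DBA/2J (38% and 52.4%). AKR/J (53.5% and 47.5%) and A/J (79.5% and 27.3%) did not. The median difference in BALB/cJ was 0.688 at promoter sites and 6.3 at distal sites. Distal medians were 6.73 in C3H/HeJ, 5.94 in CBA/J, 4.38 in C57BL/6J, 2.42 in AKR/J and -3.69 in DBA/2J. A/J, whose own distal sites ranked low (median difference -16), was the lowest of the 7 strains at 299 of the 566 sites higher in BALB/cJ. With A/J left out of the mean at these same sites, the BALB/cJ distal median was 3.36, and 295 of the 566 higher and 452 of the 569 lower sites still passed 20 points.

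The BXH lists, whose parents the ranking used, were set against the same BALB/cJ values. At the 543 higher sites called in both BXH strains BALB/cJ was above both at 465 (85.6%), against 38.9% of all such sites. At the 527 lower sites it was below both at 467 (88.6%), against 34.7%. The median difference from the BXH mean was 15.7 points at higher and -26.2 points at lower sites. The BALB/cJ value is the same in both comparisons, so the 2 are not independent.

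The site that ranked highest in BALB/cJ relative to the others lay in an intron of Sufu, 699 bp from an annotated TSS inside the gene (chr19:46533095-46534869). It was at 72.8 in BALB/cJ, against 3.21 to 31.2 in the other 6 strains (median 21.3), and at 20.3 and 44.7 in BXH2/TyJ and BXH19/TyJ. The BALB/cJ value lay far outside the range of the others, and the difference of 54.4 points was 51.4 without A/J. At another intronic Sufu site beside an annotated TSS inside the gene (chr19:46558165-46559882) BALB/cJ was below all 6, at 14.5, against 26.9 to 57.5. At the Sufu TSS site ahead of both (chr19:46471100-46471902) BALB/cJ was at 95.8, against 83.5 to 95.5. The TSS site of 1100001G20Rik was at 82.2, against 11.5 to 71.8 (median 27.3), and an intergenic site 41891 bp from the TSS of Sdr9c7, a short-chain dehydrogenase, at 85.8, against 5.04 to 55.3 (median 46.9).

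Among the other highest sites, 3 were nearest to Habp2, Gys2 and Sdsl. At the TSS of Habp2, a plasma protease secreted by hepatocytes, the site was at 80.4 in BALB/cJ, against 8.56 to 55 (median 43.2). An intronic site of Gys2, the liver form of glycogen synthase, was at 68.1, against 4.06 to 53.9 (median 26.9). At Sdsl, a serine dehydratase-like gene, the TSS site was at 62.6, against 1.02 to 37.9 (median 25.8). BALB/cJ was above all 6 strains at each of these 3. The ribosomal protein genes Rps3 and Rps18 also appeared, at 92.4 and 97.5 in BALB/cJ, but the other strains ranged from 9.59 to 85.3 and from 20.6 to 89.7, and these families have near-identical copies elsewhere in the genome, so their values are uncertain.

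At the lower end the sites in the 2 windows on chromosomes 8 and 11 came first, with BALB/cJ at 14.3 near Gm15319, against 68.7 to 99.9, and at 3.91 near Sfi1, against 54.6 to 99.9. A site over Chmp1b and Gnal on chromosome 18, assigned to Mppe1, was at 4.29, against 47.4 to 86.7 (median 76). The promoter site of the kinase gene Vrk2 was at 8.36, against 25.6 to 95 (median 77.4), and that of Aprt, which salvages adenine, at 1.91, against 25.1 to 83.9 (median 70.4). That of Irx3, a homeobox gene, was at 19.6, against the narrow range of 68.1 to 81.3 (median 73.4). BALB/cJ was below all 6 strains at all 15 of these sites, which the ranking largely sets.

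Prr5 was low at several places. Its intronic site, whose sequence is given above, was at 9.59 in BALB/cJ, against 40.6 to 87.3 (median 73.3). BALB/cJ had no peak at 2 further sites called in the 6 other strains, at the TSS and 29356 bp upstream. Of the 9 sites nearest to Prr5 BALB/cJ had a peak at 1, but most of the 9 were called in only 1 or 2 strains.

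**Figure D3:**
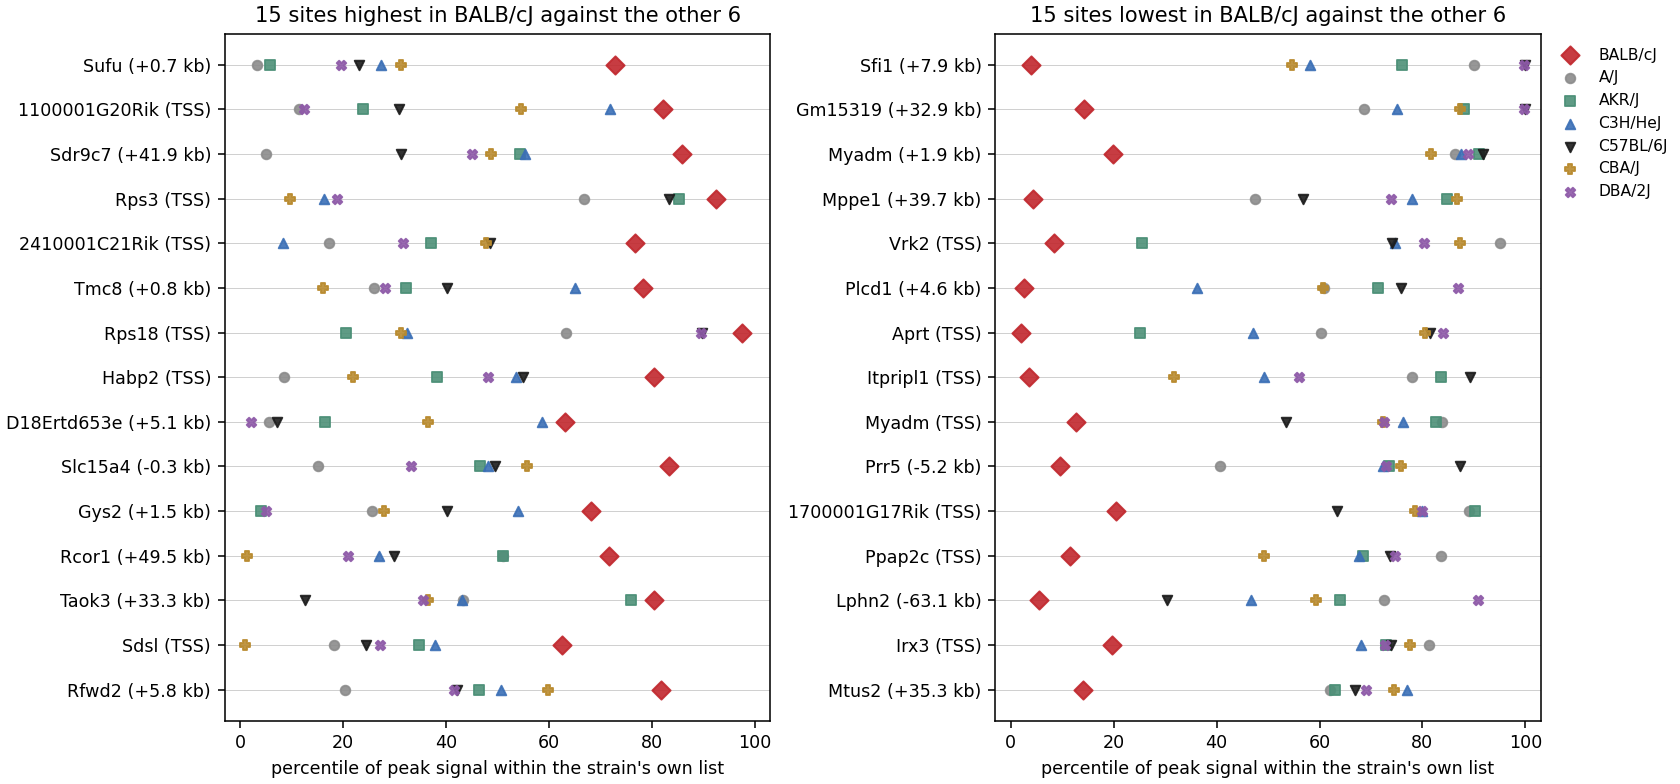
Within-list percentile of peak signal in BALB/cJ (red diamonds) and the 6 other inbred strains at the 15 sites highest (left) and the 15 lowest (right) in BALB/cJ relative to the mean of the others, among sites called in all 7 strains. Rows are named by the nearest gene and the distance to its TSS; BALB/cJ is outside the range of the other 6 at each site, by a wide margin at Sufu and Irx3 and narrowly at D18Ertd653e.

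Genes were then read by lists of liver functions, with 422 of 424 listed genes matched by name, 4 of them by another symbol. Of the genes nearest to any site, 8.10% had a BALB/cJ-only site and 0.851% a site missing in BALB/cJ only. Of those nearest to a site called in all 7 strains, 5.39% had a site at least 20 points higher and 5.63% one at least 20 points lower in BALB/cJ. None of the listed genes was the nearest gene of a site missing in BALB/cJ only, but Cyp2j11, which was, is a cytochrome P450 gene that the list does not hold. Listed genes have more sites than most, so shares of sites are given as well.

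Glucose metabolism genes had BALB/cJ-only sites at 10 of 23 genes, 15 of their 190 sites (7.89%, against 2.95% of all sites). The strongest, 10686 bp upstream of Pik3r1, the regulatory subunit of PI3 kinase, ranked at 43.7, and another 12579 bp upstream at 41.1. Among sites called in all 7 strains 5 of 49 were higher and 1 lower, with a median difference of 11.3 points, against 1.78 over all sites, and of 12.6 at distal sites, against 6.3. Without A/J the list's median was 8.44, against 1.41 over all sites. Then 2 of the 49 sites were higher in place of 5, when 406 of all 13909 sites were. Beside an annotated TSS inside Slc2a2, the glucose transporter of hepatocytes, BALB/cJ was at 81.3, against 2.9 to 76.5 (median 52.4). Upstream of G6pc, which releases glucose from glucose 6-phosphate, it was at 88.2, against 16.8 to 79.9 (median 71.9). The lowest value was that of A/J at both sites. The TSS site of Fbp1, a gluconeogenic phosphatase, was the lower one, at 61.5, against 66.9 to 88.6 (median 84.1). At Pck1 all 3 sites called in 7 strains were highest in BALB/cJ, with 91.1 at the upstream site, against 50.2 to 87.1, 89.6 at the TSS, against 53.4 to 88.5, and 86.1 downstream, against 55 to 81.8, although none passed 20 points.

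Genes of cholesterol, lipoproteins and bile acids had 15 BALB/cJ-only sites among 216 (6.94%), at 10 of 38 genes. At sites called in all 7 strains 11 of 67 (16.4%) were higher and 0 lower, against 4.07% and 4.09% of all sites. The TSS site of Mttp, which loads lipid onto apolipoprotein B, was at 73.3 in BALB/cJ, against 24.5 to 63.1 (median 44.3). An intronic site of Scarb1, the HDL receptor, was at 89.9, against 45.4 to 79.4 (median 73), and Scarb1 had 3 higher and 3 BALB/cJ-only sites among its 28. When A/J was left out, 4 sites of this list passed 20 points in place of 11, and the median difference was 5.8 in place of 8.47.

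Fatty acid and triglyceride synthesis had 9 higher (13.2%, against 4.07% of all sites called in 7 strains) and 2 lower sites (2.94%, against 4.09%) among 68. With A/J left out 4 were higher, when 406 of all 13909 sites were. The TSS sites of Acacb and Thrsp, an acetyl-CoA carboxylase and a lipogenic factor, were higher, at 91.8, against 35.8 to 86.2, and at 92, against 46.2 to 85.6. The lower sites were the promoters of Scd1, the stearoyl-CoA desaturase, at 43.5, against 57.5 to 73.4 (median 64.8), and of Pnpla3, a lipid droplet protein, at 57.4, against 64.4 to 91.6 (median 80). BALB/cJ was below all 6 strains at both. In fatty acid oxidation 6 of 52 sites were higher (11.5%), 2 without A/J, and 2 were lower (3.85%). A site 1176 bp upstream of Cpt1a, which brings fatty acids into mitochondria, was at 7.1, against 5.22 to 66.2 (median 43.7), and CBA/J was the strain below BALB/cJ.

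Hepatocyte transcription factor genes had 8 higher (9.52%) and 2 lower sites (2.38%) among 84. Their median difference was 9.27, against 1.78 over all sites, and 9.26 at distal sites, against 6.3. Without A/J the distal medians were 7.71 and, over all sites, 3.36, and the count of higher sites was 8 both with and without A/J. An intronic site of Nr5a2, a regulator of bile acid genes, was at 71.3, against 24.7 to 68.6 (median 46.8), and an intergenic site near Ppara, the fatty acid sensor, at 68.2, against 30.9 to 58.2 (median 39.6). Cebpa had 10 sites called in all 7 strains, and BALB/cJ was above all 6 others at 6 of them and below all 6 at 2. The sites past 20 points were at 48.3, against 2.16 to 41.6, at 76.6, against 36.3 to 65.8, and at 18.3, against 26 to 72.9. At the TSS of Cebpa BALB/cJ was at 44.2, against 50 to 80.2. Their BALB/cJ-only sites, 8 of 309 (2.59%), were no more frequent than over all sites (2.95%).

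The remaining lists rested on fewer sites or lay nearer to the background. Cytochrome P450 genes had 9 BALB/cJ-only sites of 126 (7.14%) and 4 higher sites of 25, 1 without A/J, with Cyp17a1 at 88.9, against 27.6 to 77.5. Circadian clock genes had 8 of 146 (5.48%) and 4 higher of 51, among them an intronic site of Hlf at 84.1, against 3.13 to 64.4 (median 57.1). Interferon and antigen presentation genes were near the background, with 3 of 110 BALB/cJ-only sites (2.73%) and a median difference of 2.19. Growth hormone and STAT genes had 0 higher and 3 lower sites of 37, 2 of them downstream of Socs3, an inhibitor of cytokine signalling. Marker genes had no BALB/cJ-only site among 40 endothelial, 6 Kupffer cell and leukocyte, and 24 stellate and bile duct sites, against 2.95% of all sites. These are too few sites to set 0 apart from that share. Of the marker sites 6 were called in all 7 strains. BALB/cJ was above the mean of the others at Reln, Pecam1, Stab2 and Lyve1 (differences of 14.24, 15.38, 8.27 and 9.17 points) and below it at Sox9 and Stab1 (-28.08 and -19.85). In whole liver, fewer cells of a type and a less open site per cell cannot be told apart.

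**Figure D4:**
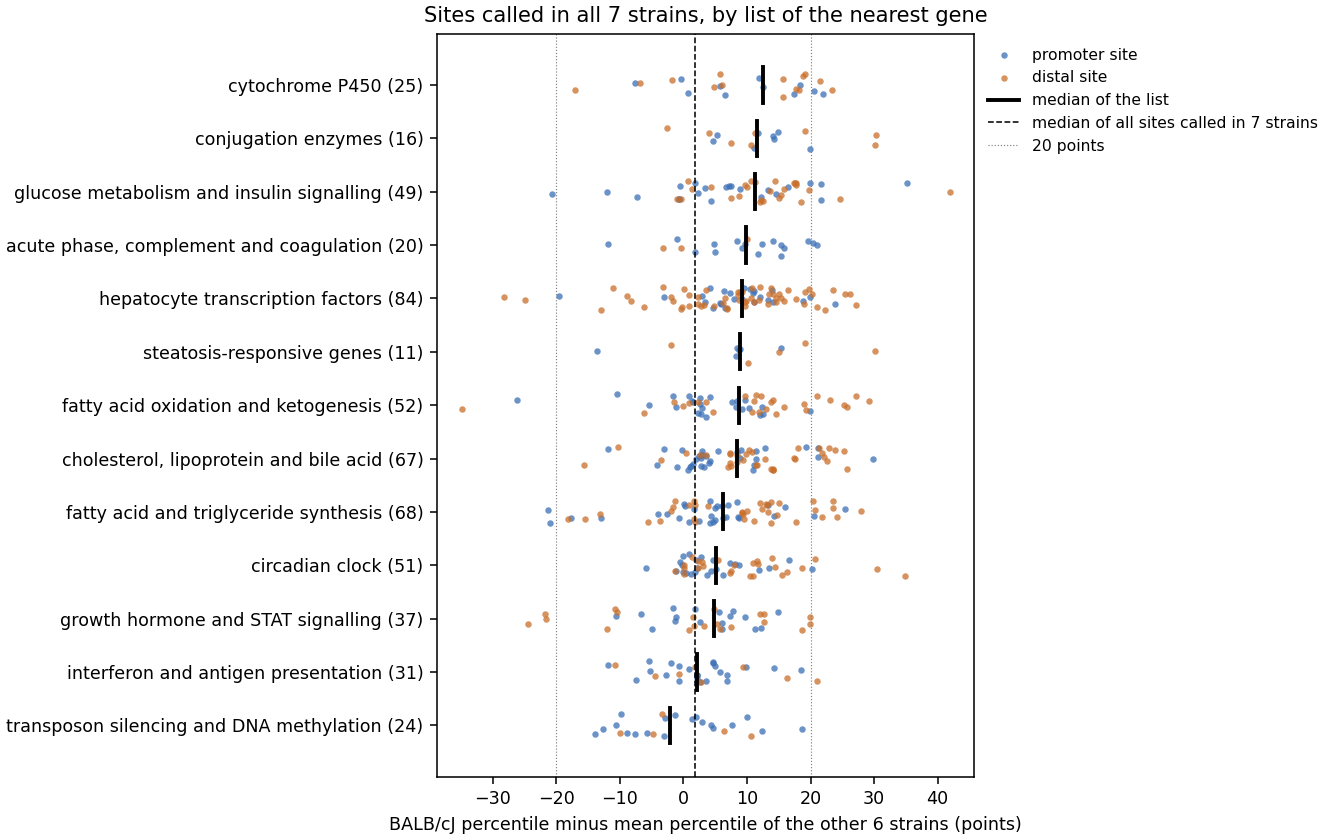
BALB/cJ percentile minus the mean of the other 6 inbred strains, in points, at each site called in all 7 strains, for gene lists with at least 10 such sites (number of sites in parentheses); thick bars are list medians, the dashed line is the median of all 13909 sites (1.78) and dotted lines mark 20 points. The medians of 12 of the 13 lists lie right of the dashed line, from 2.19 for interferon genes to 12.5 for cytochrome P450 genes, and that of the transposon silencing and DNA methylation list lies left of it at -2.11, which was 2.08 without A/J. The lists differ in their mix of promoter and distal sites. At distal sites alone the median of all genes was 6.3. Below it lay the acute phase (-0.392), interferon (2.32), growth hormone (4.02) and transposon silencing (-3.41) lists. The other lists shown lay above it, from 9.17 for circadian clock to 15.7 for cytochrome P450 genes.

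At the 3 Zhx2 sites called in all 7 strains BALB/cJ lay within the range of the others. At the TSS BALB/cJ was at 51.7, against 32.8 to 64.1 (median 56.4). At an intronic site 9324 bp in it was at 52.5, against 8.29 to 53.5 (median 45.4), and at a site 13084 bp in, shared with Gm16006, at 82, against 11.3 to 88.8 (median 82.6). At both of these the low value was that of A/J. A TSS-adjacent site called in BALB/cJ and A/J was at 17.3, against 53.3. At Afp, 2 weak sites had BALB/cJ peaks, at 9.1 and 16.6, and each was also called in 1 or 2 other strains. Of the 23 sites of the Zhx2 list 1 (4.35%, against 2.95% of all sites) was found in BALB/cJ only, 2297 bp upstream of Cyp2a4, at 15.

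Motif matches in BALB/cJ-only and missing sites are set against all sites, and those in higher and lower sites against the sites called in all 7 strains, from which they were drawn. A C/EBP match lay in the central 300 bp of 17.9% of BALB/cJ-only sites and 6.99% of sites missing in BALB/cJ only, against 12.6% of all sites, and in 15% of higher and 5.98% of lower sites, against 8.8% of sites called in all 7. FOXA matches were found in 8.18% and 3.5%, against 4.6%, and in 6.71% and 2.64%, against 3.36%. HNF4 matches (CAAAGTCCA) were found in 2.16% and 0.699%, against 1.51%, and in 2.83% and 1.23%, against 1.06%. AP-1 matches were found in 10% and 6.29%, against 8.03%, and in 8.13% and 7.91%, against 6.05%. STAT matches were found in 7.57% and 9.09%, against 7.54%, and in 7.07% and 5.1%, against 6.2%. For Sp1/KLF matches (GGGGCGGGG) the shares were 1.15% and 6.99%, against 6.11%, and 3% and 9.84%, against 11.4%. The higher sites had a smaller share of Sp1/KLF matches than the sites called in all 7, and this held at distal sites alone. There the share was 2.08% of higher and 4.01% of lower sites, against 3.73% of those called in all 7. Distal BALB/cJ-only sites had 1.04%, against 2.46% of all distal sites. Among distal sites alone C/EBP matches lay in 18.3% of BALB/cJ-only sites, against 15.5% of all, and in 15.9% of higher and 8.76% of lower sites, against 13.2% of those called in all 7. Distal FOXA matches lay in 8.19%, against 5.81%, and in 7.62% and 3.65%, against 5.94%. Distal HNF4 matches lay in 2.01%, against 2%, so BALB/cJ-only sites had no excess there, and in 3.23% and 1.82%, against 2.25%. Distal AP-1 matches lay in 10.1%, against 10%, and in 8.78% and 11.3%, against 10.6%. For distal STAT matches the shares were 7.67%, against 8.65%, and 6.47% and 9.12%, against 8.09%. Either strand was searched, and a match is only a run of letters in the reference genome.

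**Figure D5:**
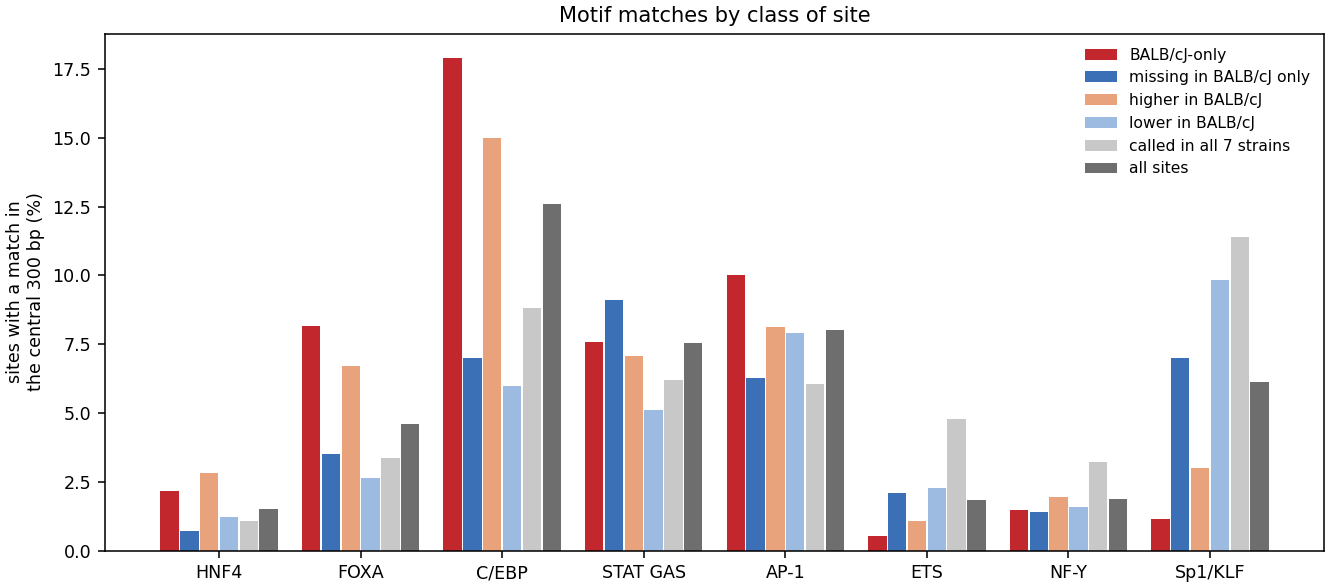
Share of sites with a motif match in the central 300 bp, on either strand of the reference, in BALB/cJ-only sites, sites missing in BALB/cJ only, sites higher and lower in BALB/cJ, the 13909 sites called in all 7 strains and all 50121 sites, for the motifs found in at least 500 sites. C/EBP and FOXA bars are tallest in BALB/cJ-only sites (17.9% and 8.18%) and the Sp1/KLF bar in the sites called in all 7 strains (11.4%), above that of lower sites (9.84%).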

How the data were processed

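Livers of 18 male mice of 9 strains were profiled by FAIRE-seq. The authors mapped reads by bowtie1 to a copy of mm9 with the SNPs of each strain (for the BXH strains, mm9 and the C3H/HeJ copy), kept uniquely placed pairs without PCR duplicates, ran F-seq on every library and joined the 2 mice of a strain by the irreproducible discovery rate. Versions of these tools are not given in the sources. The deposited lists hold positions and, as the authors' value, the F-seq signal score. Reads were not analysed here, so the depth behind a single peak is unknown. The deposited lists of most variable and most common sites were drawn from the same libraries.

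Peaks of the 7 inbred lists were merged (pandas 2.3.3, numpy 2.4.6), and the highest peak of a strain gave its percentile at a site. Gene models were those of GENCODE M1 (NCBIM37, the assembly called mm9 in the lists): the nearest TSS, protein-coding genes first if within 100 kb, and promoters within 1 kb. Sequence and GC content came from that assembly (pysam 0.24.0, samtools 1.23.1), and intervals are exact binomial (scipy 1.17.1). Merging and grouping were tested on simulated data. No p-value is given, because BALB/cJ is 1 value against 6 and an exact permutation test could not go below 0.143, one-sided.

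Members, gene lists, motifs and settings were chosen with earlier results of these data known. Named are sites among the 20 strongest BALB/cJ-only, the 20 strongest missing, and the 15 highest and 15 lowest sites called in all 7 strains, and listed genes nearest to a site of these groups; a few of them are not reported here. Other sites of a named gene were chosen after their values were seen. Alternatives were a stricter peak list, other joining rules, chromosome X, other limits, and strains left out in turn.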

Additional observations from a re-analysis of the deposited data

Results flagged for a closer look

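BALB/cJ itself was not an outlier among the 7 inbred strains in any of 18 measures, by Dixon's ratio for 7 values, which by chance marks about 1 group in 20. The 5 values that passed were those of A/J, one of the strains against which BALB/cJ is set. A/J had 7084 sites called in 1 strain only, against 989 to 2095 in the other inbred strains, BALB/cJ among them at 1479. It had 3237 sites missing in 1 strain only, against 143 in BALB/cJ. The promoter share of A/J-only sites was 49.3%, against 9.2% for BALB/cJ-only sites, and that of sites missing in A/J only was 12%, against 39.2% for BALB/cJ. A/J also had 1724 sites at least 20 points higher than the mean of the others, where BALB/cJ had 566.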

How the results depend on the processing

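No paired analysis was possible because the deposited lists combine the 2 mice of each strain. Strains were left out in turn instead. Leaving out 1 of the 6 other strains gave 1573 to 1999 BALB/cJ-only sites, 185 to 290 sites missing in BALB/cJ only, 13965 to 17217 sites called in all remaining strains, 549 to 833 higher and 594 to 733 lower sites; promoter shares were 8.85 to 12.9% and 25.2 to 39.4%, GC content 49.4 to 50.3% and 53.6 to 57.3%, and shares with a BXH peak 20.5 to 26.6% and 90.5 to 94.9%. The count of sites missing in BALB/cJ only moved by over 1.5 times without A/J (290) and without DBA/2J (254), and their promoter share without A/J (25.2%).

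With the 20000 strongest peaks of each inbred list, the BXH lists left whole, there were 871 BALB/cJ-only sites, 10.9% of them at promoters and 64.5% with a BXH peak, and 100% of sites missing in BALB/cJ only had a BXH peak. Joining peaks up to 200 bp apart gave a promoter share of 7.52% for BALB/cJ-only sites, and promoters of 2.5 kb gave 20.1% and, for sites missing in BALB/cJ only, 48.3%. Percentiles among shared sites alone gave 924 higher and 914 lower sites, and a limit of 30 points 75 and 215. A peak in both BXH lists was found at 2.1% of BALB/cJ-only sites and 67.8% of sites missing in BALB/cJ only. With A/J and DBA/2J both left out, an alternative chosen after seeing the data, there were 566 sites missing in BALB/cJ only, 929 lower sites, promoter shares of 13.3% and 22.4%, and BXH shares of 23.9% and 87.3%. With the windows on chromosomes 8 and 11 left out, also chosen after seeing the data, there were 132 missing and 558 lower sites. The other settings moved no count by over 1.5 times, and the cause of the moves was not tested. The depth behind a peak is unknown and was not tested.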

Other observations

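Sites nearest to a single gene sometimes differed in both directions. BALB/cJ ranked at 66.7 at an intronic Galnt2 site called in 4 strains (chr8:126840099-126840888), against 40.6 in A/J, 2.48 in AKR/J and 28.4 in C3H/HeJ, while at the intronic site named in the report it ranked at 24, the lowest of 6. At the Pck1 site 8332 bp upstream, called in 6 strains, BALB/cJ was highest at 77.4, against 2.74 to 76.3, and at the site 6092 bp downstream it was highest at 73.1, against 24.9 to 61.7. Genes nearest to at least 4 BALB/cJ-only sites were Osbpl1a (6 of its 22 sites), Rbm47 (6 of 33) and Galnt2 (5 of 20). Those with 4 were 1700029J11Rik (of 7), Kdm2b (of 21), Rell1 (of 13), Tcfcp2l1 (of 7) and Vgll4 (of 27). The share over all sites was 2.95%.

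The authors' list of most variable sites held 28 of the 143 sites missing in BALB/cJ only (19.6%), 50 of the 1479 BALB/cJ-only sites (3.38%), 30 of the 566 higher (5.3%) and 39 of the 569 lower sites (6.85%), against 5% of all sites. Both were made from the same libraries. Chromosome 13 had 0 sites missing in BALB/cJ only among 1900 sites, and chromosome 2 had the highest count, 16 of 3831 (0.418%). The share was 0.285% over all sites and highest on chromosome 8, at 0.432%.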
